A study of Bos indicus with 5 samples.

Results

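Transcripts of calcium, sodium and transient receptor potential (TRP) channel genes were examined in the ampulla of the bovine oviduct. Genes were taken by their symbol alone, and 74 of the 24616 genes in the table had the symbol of a voltage-gated calcium or sodium channel subunit, the sodium leak channel, a TRP channel, a mucolipin, a polycystin, a PIEZO channel, or an ORAI or STIM protein. Ampulla tissue came from 5 multiparous, healthy Nelore cows, each library from a different animal. The LF/LCL group, with a large ovulatory follicle and then a large corpus luteum, had 2 libraries, and SF/SCL, in which both structures were small, had 3. All cows were synchronised with a progesterone device, estradiol benzoate and prostaglandin F2α, ovulated after a GnRH agonist, and were slaughtered on day 4. The groups differed in that the device was taken out 42 h before GnRH in LF/LCL and 30 h before it in SF/SCL, and LF/LCL cows also received prostaglandin when the device was inserted. Per the study's methods the sequenced cows were those that ranked at the ends of follicle and luteal response, and samples held the whole wall of the oviduct on the side of the corpus luteum, so that epithelium, muscle and stroma were in 1 extract. A lower value in such bulk tissue can come from fewer cells of a type or from less RNA per cell, and these cannot be told apart.

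Calcium that enters through the calcium-permeable channels among these triggers contraction of oviduct smooth muscle. In ciliated and secretory cells calcium sets ciliary beating and secretion. Voltage-gated calcium channels are built from a pore-forming alpha1 subunit with beta and alpha2delta partners, and voltage-gated sodium channels from an alpha subunit with beta subunits. TRP channels, polycystins and PIEZO channels pass cations in response to receptors, lipids, temperature or mechanical force, whereas STIM proteins sense the calcium of the endoplasmic reticulum and open ORAI channels when that store is empty.

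Of the 74 channel genes, 56 had a mean value over 5 normalized reads and were tested, which is 75.7% of them, against 64.2% of all genes. The recovered depth was between 13418278 and 19592174 reads per library, and the tested channel genes had between 27 and 15611 reads over the 5 libraries. Means were at least 1000 for 6 genes (CACNA1H, PKD1, PKD2, CACNB3, PIEZO1 and TRPM7), between 100 and 1000 for 23 and under 100 for 27. These levels are not corrected for transcript length, so they rank read support and not transcript number. TRPV3, TRPC7, CACNG1, CACNG2 and CACNG3 had no read in any library. The other 13 untested genes had between 1 and 22 reads in all, among them the retinal calcium channel CACNA1F, the skeletal muscle sodium channel SCN4A, the sensory neuron channel SCN10A and the taste cell channel TRPM5. With such counts they stayed below the filter, so no difference between groups is given for them.

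No channel gene passed the test between LF/LCL and SF/SCL after adjustment. With limma on log2(value + 1) the smallest Benjamini-Hochberg adjusted p among the 56 was 0.265, and 0 of them, as 0% of all 15815 genes, were under 0.05. At an unadjusted limma p under 0.05 there were 8 channel genes (14.3%), against 11.5% of all genes tested. Of these, CACNA1C, ORAI1, TRPC5 and SCN2B had higher values in LF/LCL (4 genes, background 5.64%), and PIEZO2, CACNB2, TRPC1 and PKD2 in SF/SCL (4 genes, background 5.86%). edgeR's quasi-likelihood test on recovered reads called 0 channel genes after adjustment (background 0%) and 7 before it (background 11.7%). DESeq2 called PIEZO2 and CACNB2 after adjustment, 2 genes against a background of 2.91%, and 9 before it against 12.7%. Without SF/SCL replicate 3, 5 channel genes (8.93%) and 9.47% of all genes were under an unadjusted limma 0.05.

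The fitted changes leaned to neither group. The median log2 fold change of LF/LCL over SF/SCL was 0.06 over the 56 genes, with 31 positive and 25 negative, and 0.01 over all genes tested. The groups did not overlap for 14 channel genes (25%, against 30.1% of all genes), of which 8 were higher in LF/LCL (background 15%) and 6 in SF/SCL (background 15.1%). Individual channel genes spread more widely than the median gene, both between groups and between animals. The median size of the log2 fold change was 0.32, against 0.21 over all genes. The highest library exceeded the lowest by more than 3-fold, on value + 1, in 22 channel genes (39.3%) and in 17.8% of all genes tested, and the median mean value was 116 normalized reads for the channel genes and 391 for all genes. LF/LCL replicate 1 and SF/SCL replicate 3 each held the highest value of 16 channel genes (28.6%), against 21.9% and 23.7% of all genes tested. Each held the lowest value of 10 (17.9%), against 21.5% and 24.3% of all genes tested.

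**Figure D1:**
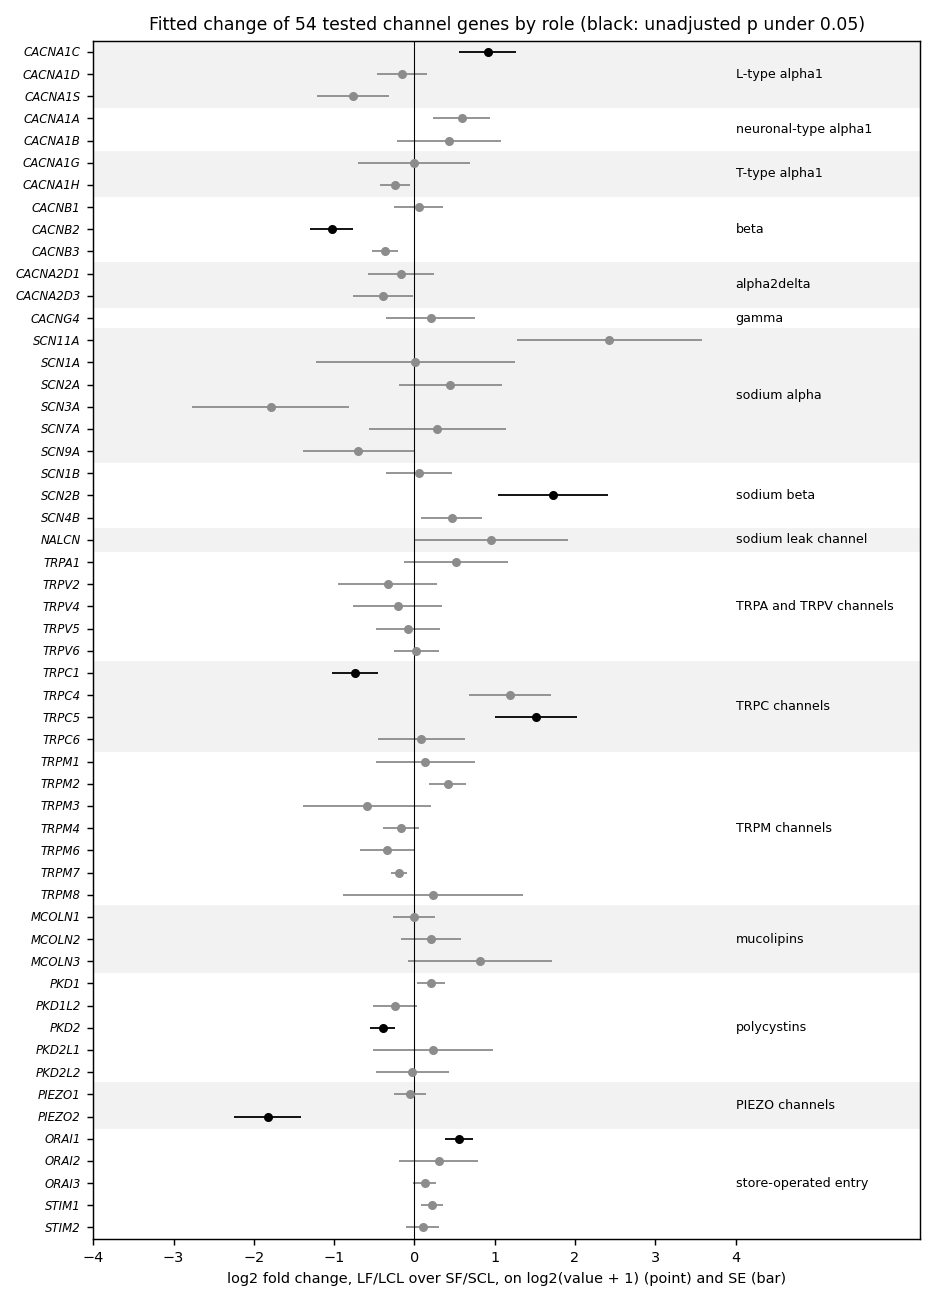
Fitted log2 fold change (LF/LCL over SF/SCL, on log2(value + 1), point) and its SE (bar) for 54 of the 56 tested channel genes, grouped by role, with the 8 genes at an unadjusted limma p under 0.05 in black. Points lie on both sides of 0 in 8 of the 16 groups, and the 5 STIM and ORAI genes all lie to the right of it.

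In the plot of fitted changes by role, the longest bars belong to sodium channel genes with few reads such as SCN11A and SCN1A, and to TRPM8. The 8 genes drawn in black came from 7 of the 16 role groups, and the TRPC channels held 2 of them.

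The L-type alpha1 subunits, which carry the sustained calcium current of muscle and endocrine cells, did not move as a block. CACNA1C, the main L-type pore of smooth muscle and heart, had values of 464 and 213 normalized reads in LF/LCL replicates 1 and 2, and of 169, 192 and 143 in SF/SCL replicates 1 to 3. Both LF/LCL libraries were above all SF/SCL libraries, with replicate 1 more than 2-fold above replicate 2. The means were 339 ± 178 (SD, n = 2) and 168 ± 24.6 (SD, n = 3), and the log2 fold change was 0.91 ± 0.35 (SE), with a limma p of 0.0403 before and 0.415 after Benjamini-Hochberg adjustment. Without LF/LCL replicate 1 the log2 fold change was 0.35. CACNA1D, whose channel opens at less depolarised voltages, had 300.2 and 225 normalized reads in LF/LCL, against 359, 347 and 194 in SF/SCL. The groups overlapped for CACNA1D, and its log2 fold change was -0.15 ± 0.31. CACNA1S, the alpha1 subunit of skeletal muscle, had 128 and 60.0 normalized reads in LF/LCL, against 183, 187 and 97.7 in SF/SCL. It was lower in LF/LCL by the group means but overlapped, with a log2 fold change of -0.76 ± 0.45 and an unadjusted limma p of 0.136.

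The summed L-type values overlapped between the groups, and the shares of its members in these reads are given next. CACNA1C took 52.0% and 42.6% of the L-type reads in LF/LCL, against 23.8%, 26.4% and 32.5% in SF/SCL. For CACNA1S, which was picked for this share after its values were seen, the shares were 14.3% and 11.99% in LF/LCL, against 25.7%, 25.7% and 22.2% in SF/SCL. Neither share overlapped between the groups, but both are parts of the same total, and CACNA1C was chosen by its p in these libraries. The 95% Wilson intervals of the CACNA1C share closest to each other were 38.4% to 46.9% in LF/LCL replicate 2 and 28.2% to 37.2% in SF/SCL replicate 3, and these intervals cover counting error only. No test was made on shares.

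**Figure D2:**
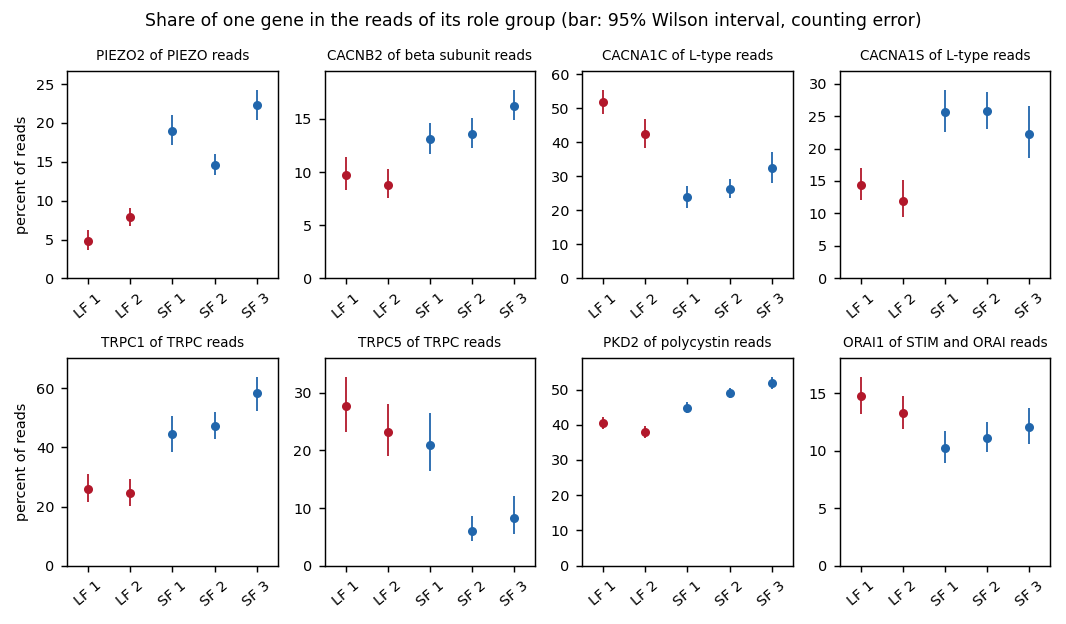
Share of 1 gene in the reads of its role group in each library, in percent, with 95% Wilson intervals for counting error (red, LF/LCL replicates 1 and 2; blue, SF/SCL replicates 1 to 3). CACNA1C took 52.0% and 42.6% of L-type reads in LF/LCL and at most 32.5% in SF/SCL, and PIEZO2 at most 7.84% of PIEZO reads in LF/LCL and at least 14.6% in SF/SCL.

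CACNA1C, chosen by its p in these libraries, ranked the 5 libraries in the same order as the summed smooth muscle markers did. ORAI1, TRPC5 and SCN2B, also chosen by p and higher in LF/LCL, did not follow that order within SF/SCL. How many of all genes share this order was not counted. That list, led by MYH11 and ACTA2 of the contractile apparatus, summed to 128925 and 66783 normalized reads in LF/LCL, and to 42255, 44526 and 17974 in SF/SCL. All 12 of its tested genes had higher values in LF/LCL, 9 of them at an unadjusted limma p under 0.05 (background 11.5%). The median log2 fold change was 1.37, and no marker was at 0. The part of muscle content in the values of CACNA1C and the other channel genes was not tested.

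T-type alpha1 subunits open near the resting potential and support pacemaking. CACNA1H, the channel gene with the most reads, had 3104 and 2502 normalized reads in LF/LCL, against 3709, 2660.2 and 3637 in SF/SCL. Its values overlapped, with a log2 fold change of -0.24 ± 0.18 and an unadjusted limma p of 0.235. CACNA1G was more variable, with 128 and 110.3 normalized reads in LF/LCL, against 66.5, 78.5 and 322 in SF/SCL, where replicate 3 alone was above both LF/LCL libraries. The neuronal-type alpha1 subunits had fewer reads. CACNA1A, the P/Q-type pore of nerve endings, had 128 and 90.0 normalized reads in LF/LCL, against 67.6, 54.4 and 97.7 in SF/SCL. The groups overlapped by SF/SCL replicate 3, and the log2 fold change was 0.59 ± 0.36.

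Among the accessory subunits of calcium channels, the beta subunits, which bring alpha1 to the membrane and tune its gating, had lower values in LF/LCL for CACNB2 and CACNB3. CACNB2, the principal beta subunit of cardiac L-type channels, had 159 and 145 normalized reads in LF/LCL, against 288, 245 and 430.3 in SF/SCL. Every SF/SCL library was above both LF/LCL libraries, which were close to each other. The means were 152 ± 10.1 (SD, n = 2) and 321 ± 97.1 (SD, n = 3), with a log2 fold change of -1.03 ± 0.27 (SE). The limma p was 0.00831 before and 0.302 after Benjamini-Hochberg adjustment, and the DESeq2 adjusted p was 0.0374. The study's own DESeq test of these libraries placed CACNB2 among the ampulla genes higher in SF/SCL. The choice of CACNB2 is therefore not independent of these libraries, and limma did not call it after adjustment.

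CACNB3, a widely expressed beta subunit, had 1322 and 1404 normalized reads in LF/LCL, against 1791, 1462 and 2074 in SF/SCL. Its groups did not overlap either, although SF/SCL replicate 2 lay near LF/LCL replicate 2. The log2 fold change was -0.37 ± 0.16, with an unadjusted limma p of 0.0615. CACNB2 took 9.77% and 8.81% of the beta subunit reads in LF/LCL, against 13.1%, 13.6% and 16.3% in SF/SCL. CACNB1, the beta subunit of skeletal muscle, had a log2 fold change of 0.05 ± 0.30 with overlap, and CACNB4 had 2 reads in all. Of the alpha2delta subunits, which increase surface expression, CACNA2D1 had 155 and 75.5 normalized reads in LF/LCL, against 87.3, 135 and 152 in SF/SCL. Each group held both low and high CACNA2D1 libraries, and the log2 fold change was -0.17 ± 0.41. Only CACNG4 among 7 gamma subunit genes reached the filter, with 57.5 and 31.9 normalized reads in LF/LCL, against 65.5, 23.3 and 33.3 in SF/SCL, which overlapped.

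PIEZO channels open when the membrane is stretched, and the pair of genes behaved differently in these libraries. PIEZO2, the channel of touch and of stretch-sensing neurons, had 58.6 and 150.0 normalized reads in LF/LCL, against 313, 289 and 419 in SF/SCL. All SF/SCL libraries were above both LF/LCL libraries, and LF/LCL replicate 1 was the lowest. The means were 104 ± 64.6 (SD, n = 2) and 340.2 ± 68.9 (SD, n = 3), and the log2 fold change was -1.83 ± 0.42 (SE). The limma p of PIEZO2 was 0.00457 before and 0.265 after Benjamini-Hochberg adjustment, and the DESeq2 adjusted p was 0.00743. The log2 fold change was -1.16 without LF/LCL replicate 1 and -2.50 without LF/LCL replicate 2.

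PIEZO1, which senses stretch and flow in epithelium and vessels, had 1166 and 1765 normalized reads in LF/LCL, against 1337, 1689.5 and 1458 in SF/SCL. These overlapped fully, with a log2 fold change of -0.05 ± 0.20. As a share of PIEZO reads, PIEZO2 was 4.79% and 7.84% in LF/LCL, against 19.0%, 14.6% and 22.3% in SF/SCL. PIEZO2, chosen by its p in these libraries, ranked them in the reverse of the order given by the summed smooth muscle markers. CACNB2, TRPC1 and PKD2, also chosen by p and higher in SF/SCL, did not, as each was lowest in LF/LCL replicate 2. How many of all genes share this reverse order was not counted. The mesothelial marker list, of serosal lining genes, summed to 9320.0 and 17062 normalized reads in LF/LCL, and to 18572, 15093 and 20529 in SF/SCL. Most of this sum came from MSLN and WT1. MSLN had 2399 and 9383 normalized reads in LF/LCL, against 10869, 8244 and 12483 in SF/SCL, while WT1 stayed between 6589 and 7240. Of the 5 tested genes of this list 2 were higher in LF/LCL, and 0 had an unadjusted limma p under 0.05 (background 11.5%). The nerve and glia list without S100B, which dominates its sum, gave 850.3 and 926 in LF/LCL, against 992, 776 and 885 in SF/SCL, and most of what was left came from TUBB3. Its genes went both ways, with 7 of 11 tested higher in LF/LCL and a median log2 fold change of 0.87. At an unadjusted limma p under 0.05 there were 4 (background 11.5%). DBH (3.26), NEFH (1.99) and PRPH (1.38) had positive log2 fold changes and SNAP25 a negative one (-1.98), and GAP43 and NEFL were at 0 in every library. Their part in the PIEZO2 values was not tested.

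**Figure D3:**
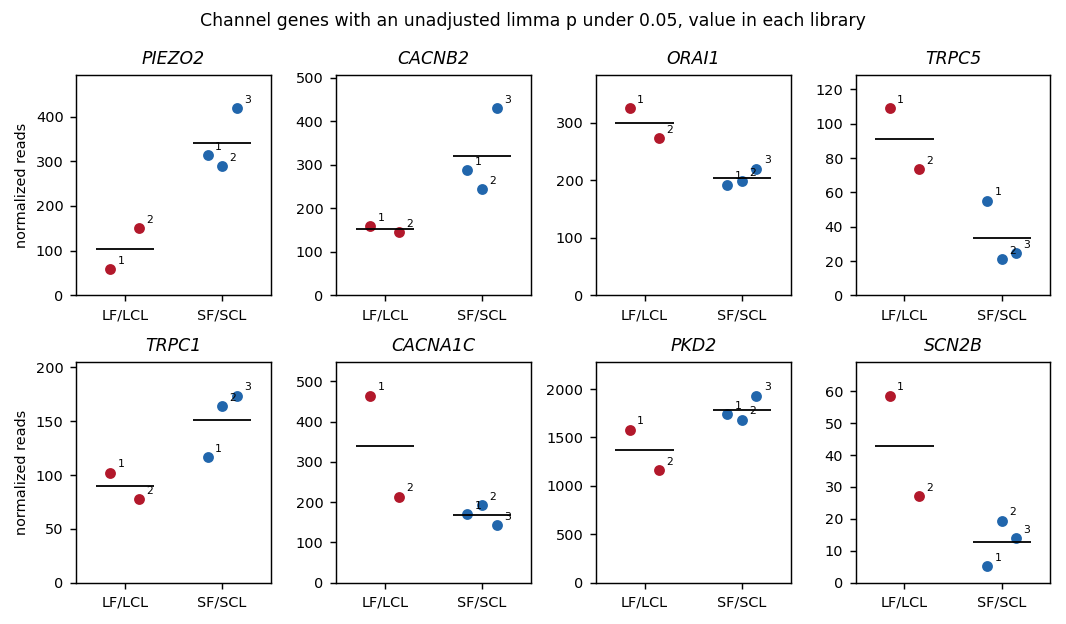
Normalized reads in each library (points, numbered by replicate; red, LF/LCL; blue, SF/SCL) and group means (lines) for the 8 channel genes with an unadjusted limma p under 0.05, on linear axes that start at 0. In all 8 panels the groups do not overlap, but these genes were chosen by their p in the same libraries. Over all genes tested the share without overlap was 30.1%. PIEZO2 ranges from 58.6 in LF/LCL replicate 1 to 419 in SF/SCL replicate 3.

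The panels of these 8 genes show how far the LF/LCL animals lay apart. Replicate 1 was more than 2-fold above replicate 2 for CACNA1C and SCN2B, and more than 2-fold below it for PIEZO2, whereas the pair of CACNB2 values nearly coincided.

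The TRPC channels, which open downstream of receptors that activate phospholipase C, differed from each other in direction. TRPC1, a widely expressed member, had 102 and 77.4 normalized reads in LF/LCL, against 116, 164 and 174 in SF/SCL. All SF/SCL libraries were above both LF/LCL libraries. Its log2 fold change was -0.74 ± 0.28 (SE), with a limma p of 0.0395 before and 0.414 after Benjamini-Hochberg adjustment. TRPC5, best known from brain, had 109 and 73.6 normalized reads in LF/LCL, against 55.1, 21.0 and 24.7 in SF/SCL. Here the LF/LCL libraries were the highest, and SF/SCL replicate 1 came nearest to them. Its log2 fold change was 1.52 ± 0.51, with a limma p of 0.0241 before and 0.363 after Benjamini-Hochberg adjustment. TRPC4, which forms channels with TRPC5 and carries muscarinic cation currents in smooth muscle, had 121 and 56.1 normalized reads in LF/LCL, against 23.9, 34.2 and 54.7 in SF/SCL. LF/LCL replicate 2 and SF/SCL replicate 3 nearly touched for TRPC4, and the log2 fold change was 1.19 ± 0.52 with an unadjusted limma p of 0.0594. TRPC6 overlapped between the groups.

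Among TRPC reads, TRPC1 held 26.0% and 24.5% in LF/LCL, against 44.4%, 47.3% and 58.3% in SF/SCL. TRPC5 held 27.8% and 23.2% in LF/LCL, against 21.0%, 6.05% and 8.27% in SF/SCL. The TRPC1 shares were well apart between the groups, while the interval of the TRPC5 share in SF/SCL replicate 1, 16.5% to 26.5%, covered the value of LF/LCL replicate 2. The summed TRPC values reached 393 and 317 normalized reads in LF/LCL, against 262, 347 and 298 in SF/SCL, which overlapped.

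TRPM channels include magnesium-permeable, calcium-activated and temperature-sensing members, and none of the 7 tested had an unadjusted limma p under 0.05. TRPM7, a channel fused to a kinase that carries magnesium and calcium, had 1444 and 1290.2 normalized reads in LF/LCL, against 1545, 1571 and 1560.4 in SF/SCL. The SF/SCL libraries were nearly equal and all above LF/LCL, with a log2 fold change of -0.19 ± 0.10 and an unadjusted limma p of 0.101. TRPM2, which responds to oxidative stress through ADP-ribose, had 188 ± 2.29 (SD, n = 2) normalized reads in LF/LCL, compared with 142 ± 25.3 (SD, n = 3) in SF/SCL, also without overlap, and its log2 fold change was 0.42 ± 0.23. TRPM8, the cold and menthol receptor, had 16.4 and 109 normalized reads in LF/LCL, against 15.6, 24.9 and 121 in SF/SCL. TRPM8 was thus high in 1 library of each group, and its difference between animals of a group exceeded that between groups. TRPM3 was likewise set by 1 animal, with 208 normalized reads in SF/SCL replicate 1 and between 32.9 and 71.5 in the other libraries.

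The TRPA and TRPV channels had 5 tested members, none with an unadjusted limma p under 0.05 and none without overlap. TRPV6, the calcium uptake channel of absorptive epithelia, had 530.1 and 408 normalized reads in LF/LCL, against 545, 318 and 554 in SF/SCL. Low and high libraries occurred in both groups, and the fitted log2 fold change was 0.02 ± 0.28, and it was -0.01 with edgeR, with DESeq2 and with limma after scaling by library totals. TRPV4, an osmotic and mechanical sensor of ciliated oviduct epithelium, averaged 46.1 ± 15.5 (SD, n = 2) normalized reads in LF/LCL, compared with 57.9 ± 32.6 (SD, n = 3) in SF/SCL. The heat and mechanical channel TRPV2 had between 48.2 and 188 normalized reads, both of these extremes in SF/SCL.

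Polycystins work in primary cilia and at the endoplasmic reticulum, with PKD1 as a receptor-like partner of the cation channel PKD2. PKD2 had 1579.7 and 1164 normalized reads in LF/LCL, against 1738, 1684 and 1933 in SF/SCL. All SF/SCL libraries were above LF/LCL, at means of 1372 ± 294 (SD, n = 2) and 1785 ± 131 (SD, n = 3). The log2 fold change was -0.39 ± 0.16 (SE), with a limma p of 0.0434 before and 0.420 after Benjamini-Hochberg adjustment. This log2 fold change was -0.61 without LF/LCL replicate 1 and -0.17 without LF/LCL replicate 2. PKD1 had 2116 and 1552 normalized reads in LF/LCL, against 1807, 1494 and 1443 in SF/SCL. These overlapped, with a log2 fold change of 0.20 ± 0.17, so the fitted values of the partners were on opposite sides of 0. PKD2 made up 40.5% and 38.0% of the polycystin reads in LF/LCL, against 44.8%, 49.1% and 52.0% in SF/SCL. Beside these, the ciliated cell markers summed to 84534 and 106965 normalized reads in LF/LCL, and to 125373, 126383 and 119646 in SF/SCL. None of its 18 tested genes was higher in LF/LCL, and 12 had an unadjusted limma p under 0.05 (background 11.5%). The median log2 fold change was -0.40, and no marker was at 0 in every library. Their part in the PKD2 values was not tested.

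The mucolipins, calcium-permeable channels of endosomes and lysosomes, overlapped between the groups. MCOLN1 had 439 and 306 normalized reads in LF/LCL, against 288, 373 and 464 in SF/SCL, with a log2 fold change of -0.01 ± 0.26. MCOLN2 and MCOLN3, with fewer reads, had log2 fold changes of 0.21 ± 0.38 and 0.82 ± 0.90.

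For store-operated entry, all 5 genes had a positive fitted log2 fold change, from 0.10 for STIM2 to 0.55 for ORAI1, in the 3 tests and under each scaling, but not without LF/LCL replicate 1 (ORAI3, -0.04), LF/LCL replicate 2 (ORAI2, -0.50) or SF/SCL replicate 2 (STIM2, -0.07). Only ORAI1 had groups that did not overlap. ORAI1, the pore of the calcium release-activated current, had 325 and 273 normalized reads in LF/LCL, against 192, 198 and 220.0 in SF/SCL. Both LF/LCL libraries were above all SF/SCL libraries, and the libraries within each group were close. The means were 299 ± 36.7 (SD, n = 2) and 204 ± 14.6 (SD, n = 3), with a log2 fold change of 0.55 ± 0.17 (SE). The limma p of ORAI1 was 0.0195 before and 0.353 after Benjamini-Hochberg adjustment, and the DESeq2 adjusted p was 0.167. The study lists ORAI1 for the ampulla as well, so this gene was not an independent choice either.

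ORAI3, a mammalian paralogue that also forms arachidonate-regulated channels, had 735 and 589 normalized reads in LF/LCL, against 587, 651 and 573 in SF/SCL. It overlapped, with a log2 fold change of 0.13 ± 0.14. The store sensors STIM1 and STIM2 had log2 fold changes of 0.21 ± 0.14 and 0.10 ± 0.20, both with overlap. ORAI2 was lowest (72.7 normalized reads) and highest (224) in the LF/LCL group itself. ORAI1 made up 14.8% and 13.3% of the STIM and ORAI reads in LF/LCL, against 10.3%, 11.1% and 12.1% in SF/SCL. The immune cell markers summed to 2749 and 3651 normalized reads in LF/LCL, and to 2807, 1815 and 2792 in SF/SCL. Of its 14 tested genes 12 were higher in LF/LCL, 5 at an unadjusted limma p under 0.05 (background 11.5%). The median log2 fold change was 0.43, and no marker was at 0 in every library. Their part in the ORAI1 values was not tested.

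Voltage-gated sodium channel genes had few reads apart from SCN9A and the beta subunits. SCN9A, a channel of peripheral neurons and endocrine cells, had 297 and 157 normalized reads in LF/LCL, against 426, 144 and 702 in SF/SCL. SF/SCL held both the lowest and the highest SCN9A library, and the log2 fold change was -0.70 ± 0.69, with a range from -1.34 without SF/SCL replicate 2 to -0.20 without SF/SCL replicate 3. SCN11A, a channel of sensory neurons, had 32.8 and 8.71 normalized reads in LF/LCL, against 8.32, 3.11 and 0 in SF/SCL, from 49 reads in all. SCN11A did not overlap, but LF/LCL replicate 2 and SF/SCL replicate 1 were nearly equal. SCN1A overlapped, with its high values in LF/LCL replicate 2 (25.2) and SF/SCL replicate 2 (29.5).

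Of the sodium channel beta subunits, which modulate gating and act in adhesion, SCN2B had 58.6 and 27.1 normalized reads in LF/LCL, against 5.20, 19.4 and 14.0 in SF/SCL. Both LF/LCL libraries were above SF/SCL, with replicate 1 the highest. The log2 fold change was 1.73 ± 0.69 (SE), with a limma p of 0.0451 before and 0.422 after Benjamini-Hochberg adjustment, from 121 reads in all. SCN4B had 280.3 and 133 normalized reads in LF/LCL, against 183, 114 and 129.9 in SF/SCL, which overlapped. Its log2 fold change was 0.46 ± 0.38, and -0.07 without LF/LCL replicate 1. NALCN, the sodium leak channel that sets resting excitability, had 9.38 and 14.5 normalized reads in LF/LCL, against 10.4, 10.9 and 1.07 in SF/SCL. SF/SCL replicate 3 stood below the other 4 libraries for NALCN, and the log2 fold change was 0.96 ± 0.95, and 0.12 without that library.

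**Figure D4:**
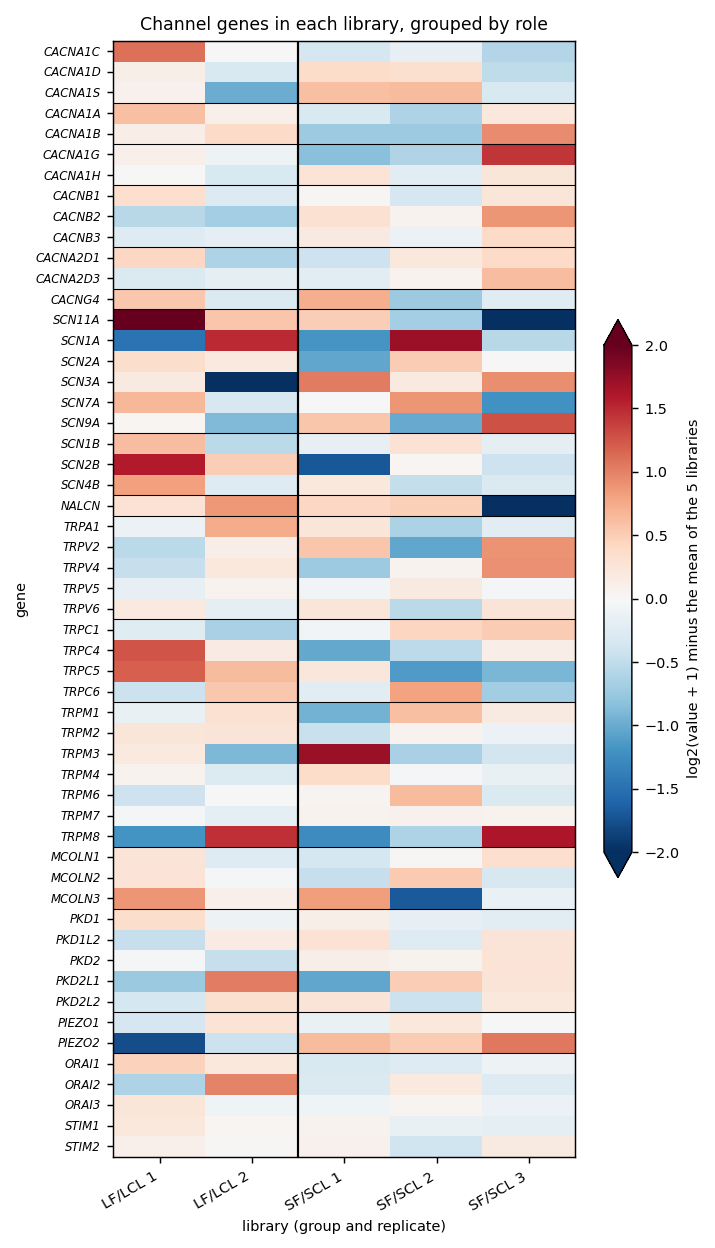
54 of the 56 tested channel genes in each library as log2(value + 1) minus the mean of the 5 libraries (colours are capped at 2 in either direction), with lines between role groups and a thick line between LF/LCL (left) and SF/SCL (right). Rows that are 1 colour in LF/LCL and the other in SF/SCL are few, and in rows such as TRPM8, SCN1A and SCN9A libraries of 1 group have opposite colours.

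In the heat map, PIEZO2, CACNB2 and PKD2 have blue or near white cells in LF/LCL and red or near white ones in SF/SCL. TRPC5, TRPC4 and SCN2B run largely the other way. The TRPM8 row has its red cells in LF/LCL replicate 2 and SF/SCL replicate 3.

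Calcium and sodium handling genes outside the symbol rule were read from 8 lists, with 65 genes tested. None passed limma after adjustment, and 10 (15.4%, background 11.5%) had an unadjusted limma p under 0.05. Of these, 6 had higher values in LF/LCL (background 5.64%) and 4 had lower ones (background 5.86%). Over these lists the median log2 fold change was 0.08, and 22 genes (33.8%, against 30.1% of all genes) had groups that did not overlap. The count under 0.05 was 5 (7.69%) without LF/LCL replicate 1, without SF/SCL replicate 2 and with limma without trend and robust estimation, where 7.80%, 10.5% and 10.5% of all genes were under 0.05. Among pumps, exchangers and their regulators (3 of 12 tested), SLC8A2, a plasma membrane sodium-calcium exchanger, had 116 and 106 normalized reads in LF/LCL, against 46.8, 32.6 and 26.8 in SF/SCL. All LF/LCL libraries were more than 2-fold above all SF/SCL libraries. The log2 fold change of SLC8A2 was 1.66 ± 0.36, with a limma p of 0.00342 before and 0.248 after Benjamini-Hochberg adjustment and a DESeq2 adjusted p of 0.00468.

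PLN, the inhibitor of the reticulum calcium pump and also a smooth muscle marker here, had 1038 and 609.8 normalized reads in LF/LCL, against 443, 416 and 474 in SF/SCL. LF/LCL was higher without overlap, with a log2 fold change of 0.84 ± 0.23, an unadjusted limma p of 0.0108 and a DESeq2 adjusted p of 0.0430. The pump itself, ATP2A2, had a log2 fold change of -0.01 ± 0.10. ATP2B1, a plasma membrane calcium pump named here after its values were seen, was lower in LF/LCL by 0.36 ± 0.13 on the log2 scale at an unadjusted limma p of 0.0349.

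Of the calcium release channels, 3 of 8 tested were under an unadjusted limma 0.05 (background 11.5%). The endolysosomal channel TPCN1 had 2781 and 3408 normalized reads in LF/LCL, against 1861, 2333 and 1190.2 in SF/SCL. It was higher in LF/LCL without overlap, with a log2 fold change of 0.83 ± 0.29 and an unadjusted limma p of 0.0286. RYR2, the ryanodine receptor of heart and smooth muscle, had 52.8 and 20.3 normalized reads in LF/LCL, against 7.28, 9.33 and 16.1 in SF/SCL, with a log2 fold change of 1.58 ± 0.63. ITPR3, an inositol trisphosphate receptor of epithelia named after its values were seen, was lower in LF/LCL, with a log2 fold change of -0.42 ± 0.17 and an unadjusted limma p of 0.0486. ANO1, a calcium-activated chloride channel of epithelium and pacemaker cells, was the gene under 0.05 among other calcium-linked channels (1 of 12 tested). It had 1959 and 1497 normalized reads in LF/LCL, against 2200.0, 3293 and 4491 in SF/SCL. No library of LF/LCL reached those of SF/SCL, and the log2 fold change was -0.90 ± 0.31 with an unadjusted limma p of 0.0274.

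The remaining genes under an unadjusted limma 0.05 (background 11.5%) were SLC8B1, PPP3R1 and UNC79. The mitochondrial sodium-calcium exchanger SLC8B1 was the only 1 of 6 tested in its list, with a log2 fold change of 0.54 ± 0.19. The calcineurin subunit PPP3R1 (0.29 ± 0.10) was the only 1 of 9, and UNC79, a NALCN partner, the only 1 of 7. UNC79 had 0 and 1.94 normalized reads in LF/LCL, against 4.16, 27.2 and 15.0 in SF/SCL, so SF/SCL was higher from few reads and no fold is given. None of the 8 store-operated entry regulators and none of the 3 epithelial sodium channel subunits tested was under 0.05.

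**Figure D5:**
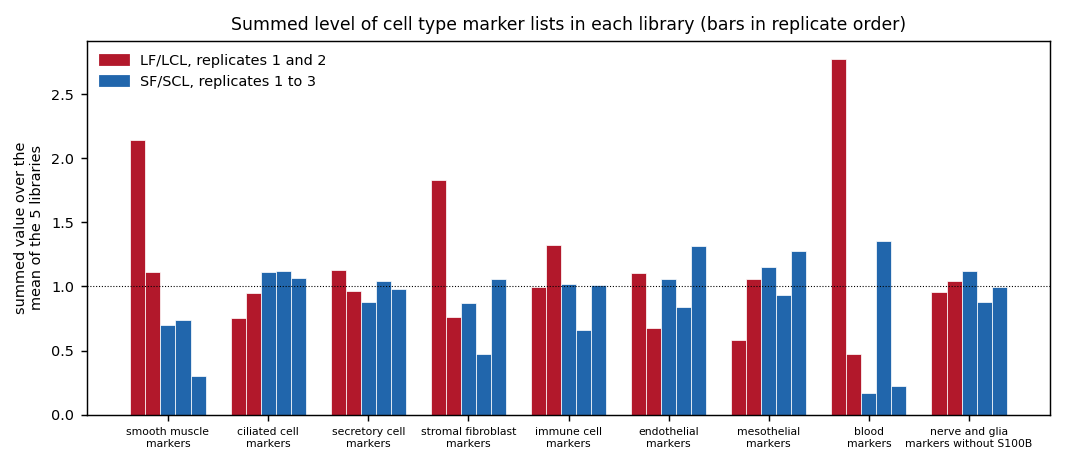
Summed normalized reads of 9 cell type marker lists in each library, divided by the mean of the 5 libraries (bars in replicate order; red, LF/LCL; blue, SF/SCL; the axis starts at 0). The smooth muscle sum is highest in both LF/LCL libraries (128925 and 66783 normalized reads) and lowest in SF/SCL replicate 3 (17974), and the ciliated cell sum is lowest in LF/LCL.

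The plot of marker sums holds the remaining lists. Stromal fibroblast markers were higher in LF/LCL for 10 of 11 tested genes, none at an unadjusted limma p under 0.05, with a median log2 fold change of 0.73. Secretory cell markers were higher for 6 of 10, with 6 under 0.05 in either direction, endothelial markers for 6 of 9 with 1 under 0.05, and mesothelial markers for 2 of 5 with 0. Blood markers, higher for 3 of 3 with 0 under 0.05, summed to 528 normalized reads in LF/LCL replicate 1 and to between 32.2 and 257 in the other libraries, with ALAS2 at 0 in every library. Nerve and glia markers, S100B included, were higher for 8 of 12, with 5 under 0.05. Over all genes tested, 11.5% had an unadjusted limma p under 0.05. The part of these lists in the channel values was not tested.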

How the data were processed

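RNA-Seq of ampulla tissue from 5 cows was analysed. The authors aligned reads with TopHat2 2.0.8 and Bowtie2 2.1.0 to the masked UMD cattle assembly, used SAMtools 0.1.18, counted unambiguous reads per Ensembl gene with HTSeq 0.5.4p2 and divided them by DESeq 1.12.1 size factors. The deposited values are therefore a normalized signal (normalized reads). Use of strand in counting is not given in the sources used here, so overlapping and antisense genes are uncertain.

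Each value was a whole multiple of 1 step per library, and 100% came out as whole reads (tolerance 0.01 reads). Recovered totals ranged from 13418278 to 19592174 reads, which limits precision for genes with few reads. Genes with a mean value over 5 (15815) were tested with limma 3.58.1 (R 4.3.3; trend and robust) on log2(value + 1). This scale understates the change of low genes. P-values were two-sided and adjusted over all genes by the Benjamini-Hochberg method with a threshold of 0.05. They rest on the spread between these cows, which limma moderates across genes. The cows were selected at the ends of follicle and luteal response, so this spread is not that of all cows treated. The study left out another LF/LCL ampulla library because of its quality and few reads. No batch was given in the labels. edgeR 4.0.16 and DESeq2 1.42.0 on recovered reads, other scalings, pseudocounts and filters, and leaving out each library were alternatives. The fits were also run on simulated counts, in which the changed genes were drawn only from genes with more reads. The check there was on the median fold change alone, so it does not cover genes with few reads.

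Named with values in every library were channel genes with an unadjusted limma p under 0.05 or an adjusted call by any tool, CACNB2 and ORAI1, and the member with the highest mean value in each role group. Up to 2 pathway genes per list with a p under 0.05 were named by smallest p. Other genes were named after their values were seen. The channel genes, role groups, pathway lists and marker lists were chosen with earlier results of these data known. Of 84 pathway symbols 72 matched the table. Sequences, coordinates and transcript lengths were not used here. Values of 2 tested channel genes are not reported here, although the counts over all channel genes include them.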

Additional observations from a re-analysis of the deposited data

How the results depend on the processing

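Of 322 fold changes (23 named channel genes under 14 alternatives), 302 kept their direction and side of the threshold, 2 passed it and 18 changed sign. After adjustment 0 channel genes were called under every alternative except DESeq2, which called 2 (PIEZO2 and CACNB2). Leaving out each library gave 0 to 0 adjusted calls, 5 to 8 channel genes and 5 to 9 pathway genes at an unadjusted p under 0.05, a median log2 fold change from -0.004 to 0.107, and 20 to 31 genes without overlap, a number that grows with fewer samples by construction. The pathway count was 5 with limma without trend and robust estimation. PIEZO2 and CACNB2 kept an unadjusted p under 0.05 in all 14 alternatives (highest 0.0168 and 0.0440), ORAI1 in 12, TRPC1, TRPC5 and SCN2B in 11, CACNA1C in 9 and PKD2 in 8. TRPV6 changed sign with edgeR (-0.007), DESeq2 (-0.006) and library totals (-0.012). Over the left-out libraries the log2 fold change crossed 0 for CACNA1D (-0.44 to 0.054), PIEZO1 (-0.352 to 0.246), TRPV6 (-0.239 to 0.211), CACNA2D1 (-0.681 to 0.345), CACNG4 (-0.211 to 0.617), MCOLN1 (-0.266 to 0.253), PKD1 (-0.02 to 0.427), SCN4B (-0.073 to 1.001) and ORAI3 (-0.035 to 0.286). The cause was not tested. With 1 LF/LCL library left, its spread is assumed to be that of SF/SCL. Scaling moved the median of all genes from 0.01 to -0.03 at most. With 2 and 3 animals, a p over the threshold does not show equal values. No paired analysis was possible because the libraries come from different animals that share no number in the labels.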

Other observations

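Some channel and partner genes had 1 or 2 libraries far above the others, and the examples given here were picked after their values were seen. TRPM8 had 109 normalized reads in LF/LCL replicate 2 and 121 in SF/SCL replicate 3, against 15.6 to 24.9 in the other 3 libraries. UNC80, a scaffold of the NALCN channel, had 414 and 111 normalized reads in the same libraries, against 4.66 to 18.7 in the others. The mesothelial marker UPK3B was also highest there, with 795 and 921 normalized reads against 52.8 to 329.6 elsewhere. CALB2, with few reads, was above 0 only there (3.87 and 2.15). Most of that marker list went otherwise. LRRN4 and BNC1 were highest in SF/SCL replicate 1 (107 and 26.0) and lowest in SF/SCL replicate 3 (8.59 and 9.66). MSLN was higher in SF/SCL replicate 1 (10869) than in LF/LCL replicate 2 (9383), and WT1 stayed between 6589 and 7240. The part of UPK3B in the TRPM8 and UNC80 values was not tested. NALCN itself was lowest (1.07) in SF/SCL replicate 3. The reticulum calcium buffer CASQ1 had 123 normalized reads in LF/LCL replicate 1 and 5.37 to 16.5 in the other 4 libraries. The epithelial sodium channel subunit SCNN1G was high in LF/LCL replicate 2 (179) and SF/SCL replicate 1 (185) and between 45.7 and 66.5 elsewhere.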
